A study of Mus musculus with 9 samples.

Results

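Cell division genes were followed in sorted macrophages of C57BL/6J mice, obtained from testis or epididymis or brain. They were taken by symbol from a list of 42 genes with a role in copying DNA or in separating chromosomes. The list was drawn up with earlier results of these data known, although no measured value enters the rule. Of the 42, 41 had a row among the 15434 genes of the deposited table, and Bub1 is not analysed here. The 41 comprised 17 S-phase genes, whose products act while DNA is copied, and 24 mitotic genes, whose products act while chromosomes are condensed, aligned and separated. RNA sequencing had been run on 3 libraries per organ, 9 in all. Live cells carrying CD45, CD11b and F4/80 and lacking Ly6C and CD11c had been sorted without culture or treatment, and those of brain are named microglia in the sample titles. The labels give mouse number 1 for testis, 2 for epididymis and 3 for brain, so organ and mouse number cannot be told apart. They do not say whether the 3 libraries of an organ came from separate animals, nor the animals' age, and they describe a pooling of testis and epididymis suspensions without saying whether the organs were mixed. The p-values therefore rest on the spread among these 9 libraries, part or all of which may be technical. An n of 3 below counts libraries and not animals.

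As background, a dividing cell switches its genes on in waves. E2F factors bind GC-rich words in promoters and drive the S-phase genes, among them the MCM helicase subunits, the sliding clamp Pcna and the enzymes that make deoxynucleotides. The mitotic genes follow later, and the DREAM and MMB-FOXM1 complexes act on them through a word known as the cell cycle genes homology region, or CHR, often beside CCAAT boxes bound by NF-Y. Microglia and the macrophages of other organs are known to renew themselves in part by local division, and most cells are outside the cycle at any moment.

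Promoter sequences show the difference between the classes in letters. RefSeq windows on GRCm38.p6, running from 250 bases before to 50 bases after the gene's start, were searched on both strands for the CHR word TTTGAA and its variant with C in the middle, TTCGAA, and for CCAAT. The E2F words searched were TTGGCGC together with TTCGCGC, and, among sites of another form, TTCCCGC together with TTGCCGC. There were 36 windows for 33 of the 41 genes. A CHR word lay in 15 of 20 windows of mitotic genes (75%), in 2 of 16 windows of S-phase genes (12.5%) and in 19.2% of all 32851 windows. An E2F word lay in 3 of 20 mitotic windows (15%), in 11 of 16 S-phase windows (68.8%) and in 9.57% of all windows. CCAAT lay in 17 of 20 mitotic windows (85%), 11 of 16 S-phase windows (68.8%) and 37.4% of all windows. A match is a run of letters and not a measured binding site, and the classes were not tested against each other.

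**Figure D1:**
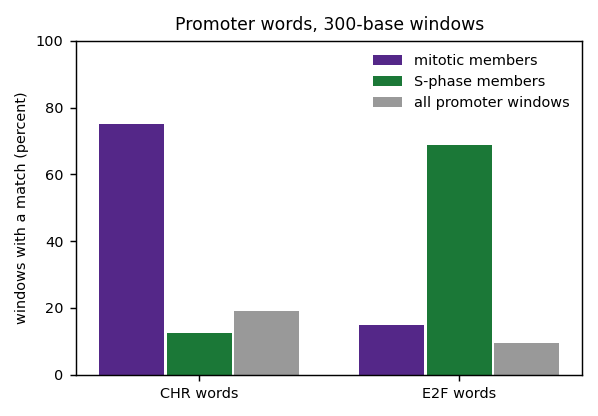
Share of RefSeq promoter windows (y axis, percent) that hold a CHR word or an E2F word (x axis), for mitotic genes (20 windows), S-phase genes (16 windows) and all 32851 windows. CHR words were in 75% of mitotic windows and 12.5% of S-phase windows, and E2F words in 15% of mitotic windows and 68.8% of S-phase windows.

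The stretches from position -180 to -1 are shown for 3 mitotic genes that stood higher in testis than in brain macrophages and for 3 S-phase genes that were not called, with CHR and E2F words in capitals (5′ to 3′ on the strand of the gene, RefSeq, GRCm38.p6). The positions are chr7:135716380-135716559 on the minus strand for Mki67, chr11:99024190-99024369 (minus) for Top2a, chr10:69352913-69353092 (minus) for Cdk1, chr8:75109329-75109508 (plus) for Mcm5, chr1:128359706-128359885 (minus) for Mcm6 and chr7:102441515-102441694 (plus) for Rrm1.
Mki67: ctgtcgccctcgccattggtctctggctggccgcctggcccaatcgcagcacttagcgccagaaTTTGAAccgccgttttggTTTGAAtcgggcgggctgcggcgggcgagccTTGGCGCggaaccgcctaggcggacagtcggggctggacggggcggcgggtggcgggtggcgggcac
Top2a: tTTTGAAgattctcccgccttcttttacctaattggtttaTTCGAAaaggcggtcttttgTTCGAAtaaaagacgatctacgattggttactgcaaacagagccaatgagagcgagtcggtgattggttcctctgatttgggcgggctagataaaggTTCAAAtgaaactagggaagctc
Cdk1: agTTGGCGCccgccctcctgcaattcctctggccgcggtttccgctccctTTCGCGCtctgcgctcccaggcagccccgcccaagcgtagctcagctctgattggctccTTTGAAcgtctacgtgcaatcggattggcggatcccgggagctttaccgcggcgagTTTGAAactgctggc
Mcm5: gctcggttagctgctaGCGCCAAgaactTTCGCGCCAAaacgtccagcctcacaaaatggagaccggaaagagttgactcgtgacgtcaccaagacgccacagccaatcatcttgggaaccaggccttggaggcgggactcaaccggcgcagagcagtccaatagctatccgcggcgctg
Mcm6: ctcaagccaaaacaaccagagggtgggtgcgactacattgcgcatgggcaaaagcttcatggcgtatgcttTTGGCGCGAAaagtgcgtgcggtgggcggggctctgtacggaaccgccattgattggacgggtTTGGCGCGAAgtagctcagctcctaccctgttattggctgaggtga
Rrm1: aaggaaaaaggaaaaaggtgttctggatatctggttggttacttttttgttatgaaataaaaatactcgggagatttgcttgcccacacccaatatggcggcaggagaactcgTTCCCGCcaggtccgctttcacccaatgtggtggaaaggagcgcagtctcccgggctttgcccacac
Top2a held 4 CHR words in this stretch, 1 of them on the other strand as TTCAAA, and no E2F word. Mki67 held 2 CHR words and 1 E2F word, and Cdk1 2 of each. Mcm5 held 3 E2F words and Mcm6 4, some overlapping and some on the other strand, and Rrm1 held 1. Neither Mcm5, Mcm6 nor Rrm1 held a CHR word here. These genes are examples, and promoter words were not tested against calls. CHR words also lay in the windows of Kif11, Cdc20 and Ube2c, mitotic genes that were not called. Mcm2, an S-phase gene that was not called, held one as well.

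Depth ran from 2727092 to 4458688 reads assigned to genes per library, and values are given as the authors' normalised reads, where 1 read is worth between 0.808 and 1.11. All 12 macrophage markers had reads in every library, and the summed microglia identity genes were highest in brain. The macrophage markers summed to between 20188 and 21939 normalised reads in testis, 32567 and 34446 in epididymis and 45360 and 50395 in brain. These ranges did not overlap and were highest in brain, where the means of the called cell division genes were lowest. Csf1r averaged 8045, 14065 and 21646 in testis, epididymis and brain, and Cx3cr1 2271, 7718 and 15456. Ptprc averaged 2805, 2944 and 1622. Against brain, 3 of the 12 were called (as defined below) higher and 4 lower in testis, where 6.82% and 4.83% of all tested genes were. In epididymis 4 were higher and 3 lower, where 2.99% and 1.80% were. Their median log2 fold was 0.22 and 0.95. The part of these markers in the results was not tested. Of the 41 genes, 37 reached 10 normalised reads in at least 3 libraries and were tested with limma on log2(value + 1), together with all other genes that did (11766 in all). Rrm2, Ccne1, Aurkb and Plk1 were too low. A gene was called at a Benjamini-Hochberg adjusted p below 0.05 over all 11766. Both comparisons with brain use the same brain libraries and are set side by side only. Giving every library the same total moved the median log2 fold over tested genes by more than 0.1: to -0.05 against 0.10 between testis and epididymis and to -0.30 against -0.07 between testis and brain. The calls over all genes were then 227 higher and 307 lower in testis than in epididymis, against 293 and 223 as scaled by the authors, and 223 and 256 with quantile normalization. Between testis and brain they were 651 higher and 775 lower, against 803 and 568. No called cell division gene changed sign under either scaling. With the same total, 5 cell division genes were called higher in testis than in brain, against 6 as scaled by the authors. Tpx2 lost its call there (limma's adjusted p = 0.0551).

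Between testis and brain, 6 of the 37 tested cell division genes were higher in testis and none was lower. Over all tested genes, 6.82% were called higher and 4.83% lower, 11.7% in all. The count was 3 without brain library 1 or any 1 of the testis libraries, and 10 without epididymis library 3. Over all tested genes, 803 were called higher with every library. That number was 535 without brain library 1, 509 to 562 without 1 of the testis libraries and 867 without epididymis library 3. The called genes were 5 of the 22 mitotic genes tested (Mki67, Top2a, Cdk1, Cenpa and Tpx2) and 1 of the 15 S-phase genes tested (Mcm4). Over all 41 genes the median log2 fold was 1.12, against 0.00 over the 15434 genes of the table. By class it was 1.74 for mitotic genes and 0.39 for S-phase genes. In 18 of the 41 genes (13 mitotic, 5 S-phase) each testis library was above each brain library. One of them, Aurkb, was too low to test, which leaves 17 of the 37, against 15.9% of tested genes. In no gene was each testis library below each brain library, against 14.9% of tested genes. An unadjusted limma p below 0.05 was found in 15 of the 37, against 23.4% of tested genes. In bulk libraries, a larger share of dividing cells and more RNA of these genes per cell cannot be told apart.

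Between epididymis and brain, 3 of the 37 were higher in epididymis (Mki67, Top2a and Cenpa, all mitotic) and none was lower, where 2.99% of all tested genes were called higher and 1.80% lower, 4.79% in all. The median log2 fold over the 41 was 0.42, against -0.06 over the whole table, and by class 0.80 for mitotic and 0.30 for S-phase genes. Each epididymis library exceeded each brain library in 9 genes (6 mitotic, 3 S-phase), against 10.5% of tested genes, and in no gene did the reverse hold, against 11.5%. An unadjusted limma p below 0.05 was found in 9 of the 37, against 16.4% of tested genes.

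**Figure D2:**
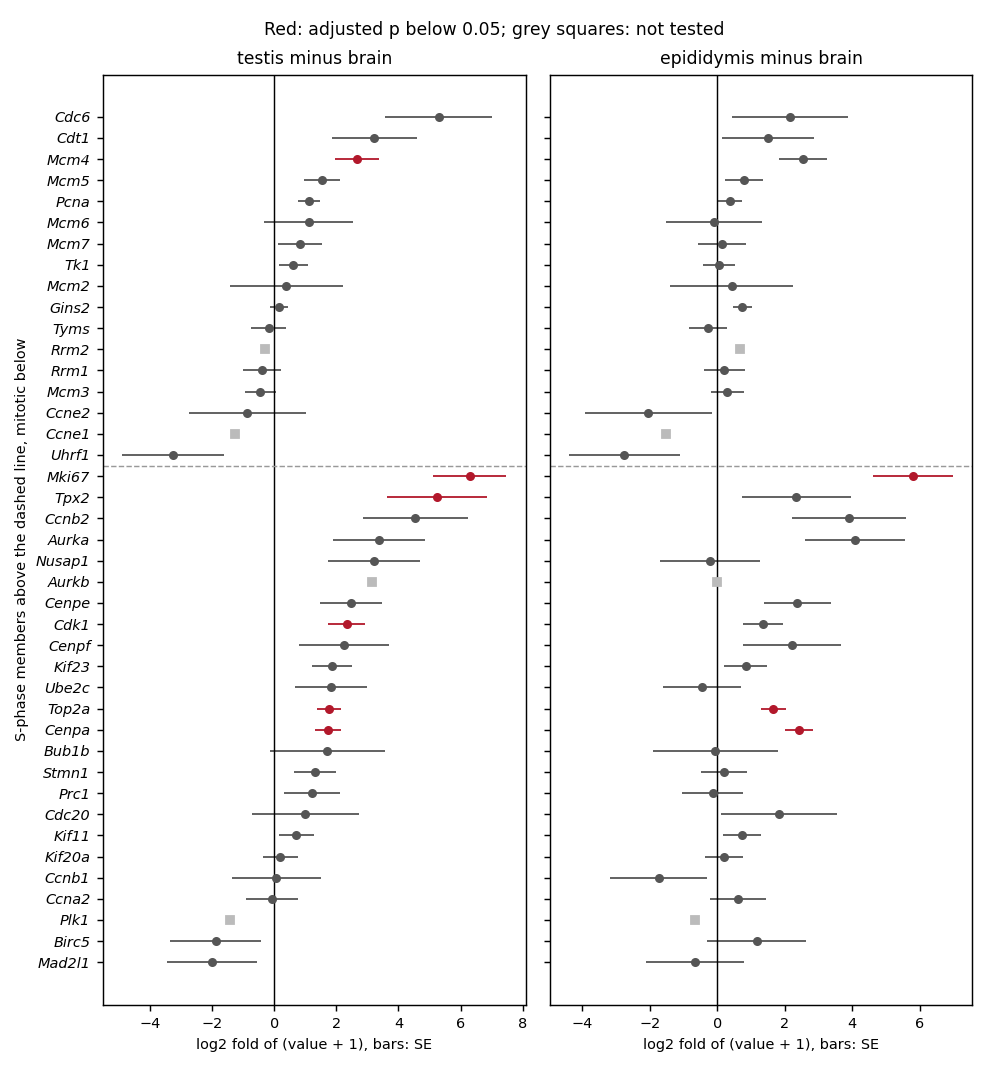
log2 fold of (normalised reads + 1) against brain (x axis) for each cell division gene (y axis, S-phase above the dashed line, mitotic below), with SE bars from limma, for testis on the left and epididymis on the right. Genes with an adjusted p below 0.05 are red: 6 for testis and 3 for epididymis; grey squares are genes too low to test, and both panels share the brain libraries.

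Mki67 encodes Ki-67, a protein that coats mitotic chromosomes and marks cells in the cycle. It stood at 146, 235 and 101 normalised reads in the testis libraries, at 244, 68.5 and 75.5 in the epididymis libraries and at 6.38, 0 and 0 in the brain libraries. All reads in brain came from 1 library, 7 in all, against 550 in testis and 411 in epididymis, and neither testis nor epididymis overlapped brain. The log2 fold against brain was 6.29 ± 1.18 for testis (SE, limma's adjusted p = 0.0022) and 5.81 ± 1.18 for epididymis (SE, limma's adjusted p = 0.00904). With so few brain reads its size depends on the value added before taking logs, and it ran from 4.57 to 7.25 for testis over the alternatives. Its call against brain was kept in all 19 alternatives for testis and in 17 of 19 for epididymis. It was lost there without epididymis library 1, the highest of that organ (adjusted p = 0.0618), and with only the libraries of both organs in the fit (adjusted p = 0.0641).

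Top2a, the topoisomerase that untangles sister chromatids, lies at chr11:98992943-99024189. It had 546, 641 and 348 normalised reads in testis, 401, 514 and 480 in epididymis and 145, 241 and 88.0 in brain. The brain libraries were all below the others. The log2 fold was 1.76 ± 0.38 for testis (SE, limma's adjusted p = 0.0064) and 1.66 ± 0.38 for epididymis (SE, limma's adjusted p = 0.0184). Its call was kept in 18 of 19 alternatives for testis and in 13 of 19 for epididymis. For epididymis it was lost without brain library 1 (adjusted p = 0.0513), without brain library 3 (0.0691), without epididymis library 2 (0.0719) and without epididymis library 3 (0.0618). Its exons hold a small annotated gene on the same strand, Gm23451, so its reads may include those of another transcript.

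Cenpa, the histone H3 variant that marks centromeres, was the one mitotic gene whose epididymis libraries all exceeded the testis libraries and the brain libraries. It had 299, 427 and 357 normalised reads in testis, 465, 693 and 613 in epididymis and 60.1, 218 and 95.1 in brain. Brain library 2 was the highest of its organ and still under every testis library. The log2 fold was 1.72 ± 0.42 for testis (SE, limma's adjusted p = 0.0143) and 2.42 ± 0.42 for epididymis (SE, limma's adjusted p = 0.0031). The testis call was lost without brain library 1 (adjusted p = 0.0672) and without testis library 2 (0.0586).

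Cdk1, the kinase that drives entry into mitosis, was called only in the testis comparison, and the difference between testis and epididymis had an adjusted p of 0.436 with limma. It had 351, 175 and 216 normalised reads in testis, 112, 187 and 83.0 in epididymis and 36.4, 94.8 and 28.4 in brain. Brain library 2 exceeded epididymis library 3, and no brain library reached a testis library. The log2 fold was 2.33 ± 0.60 for testis (SE, limma's adjusted p = 0.0182) and 1.36 ± 0.60 for epididymis (SE, limma's adjusted p = 0.262). The testis call was lost without testis library 1 (adjusted p = 0.0861) or 3 (0.0508) and without brain library 1 (0.0630) or 3 (0.0666).

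Tpx2, which activates Aurora A and builds spindle microtubules, varied most among the called genes. It had 61.1, 198 and 82.9 normalised reads in testis, 74.5, 15.0 and 1.08 in epididymis and 9.11, 0 and 0.889 in brain. Every testis library was above every brain library, and epididymis library 1 lay among the testis libraries. The log2 fold was 5.24 ± 1.62 for testis (SE, limma's adjusted p = 0.0473) and 2.35 ± 1.62 for epididymis (SE, limma's adjusted p = 0.530). The testis call held in 7 of 19 alternatives, with adjusted p between 0.0051 and 0.152, and was lost on leaving out any testis or brain library or epididymis library 2.

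**Figure D3:**
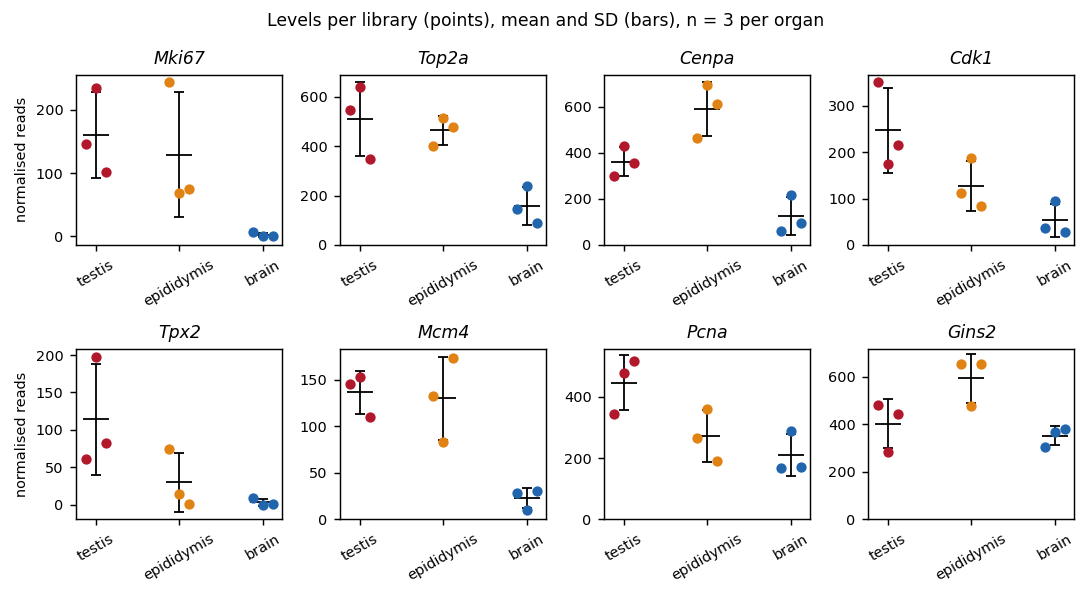
Normalised reads (y axis) in the 3 libraries of testis, epididymis and brain (x axis; points are libraries, bars mean and SD) for Mki67, Top2a, Cenpa, Cdk1, Tpx2, Mcm4, Pcna and Gins2. The brain libraries of Mki67, Top2a, Cenpa and Mcm4 lie below every testis and epididymis library, while those of Pcna and Gins2 come close to or among the others.

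The remaining mitotic genes did not pass the test in either comparison with brain, and many were read in only some libraries. Ccnb2, a mitotic cyclin that partners Cdk1, had 34.2, 11.3 and 28.2 normalised reads in testis and 54.5, 58.2 and 0 in epididymis. It had no read in any brain library. Its mean was 8.43-fold an assumed floor of 3 reads per brain library in testis and 12.9-fold that floor in epididymis. It was not called against brain (limma's adjusted p = 0.105 for testis and 0.255 for epididymis). The other mitotic cyclin, Ccnb1, showed no such order, with means of 92.6 ± 77.6 in testis, 67.2 ± 60.2 in epididymis and 73.6 ± 23.6 in brain (SD, n = 3 each). Ccna2, the cyclin of S phase and G2, averaged 56.2 ± 45.2, 83.0 ± 42.6 and 49.6 ± 11.0 in testis, epididymis and brain (SD, n = 3 each).

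The Aurora kinases and the chromosomal passenger Birc5 were read unevenly. Aurka, the spindle pole kinase, had 16.6, 33.1 and 20.5 normalised reads in testis, 24.5, 37.5 and 57.1 in epididymis and 0, 0 and 10.7 in brain. All brain libraries were below all others, with limma's adjusted p = 0.182 for testis and 0.151 for epididymis against brain. Aurkb, the kinase of the passenger complex, had reads in testis alone, 40 in all, at 4.14, 4.04 and 26.5 normalised reads, and was too low to test. Birc5, its partner survivin, ran from 0 to 59.8 in testis, from 96.6 to 109 in epididymis and from 7.80 to 155 in brain. Plk1, a kinase needed through mitosis, had no read in testis, 4 in epididymis and 20 in brain. Its reads came from 1 library in epididymis and from 1 library in brain.

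Kinetochore and spindle checkpoint genes did not move as a block. Cenpe, a kinesin that carries chromosomes to the spindle equator, had 143, 54.1 and 53.9 normalised reads in testis, 96.4, 32.8 and 106 in epididymis and 12.8, 24.5 and 6.22 in brain. Its brain libraries lay below all others, with log2 folds of 2.47 ± 0.99 for testis and 2.37 ± 0.99 for epididymis (SE, limma's adjusted p = 0.136 and 0.232). Mad2l1, a checkpoint protein, averaged 16.2 ± 20.4 in testis, 38.5 ± 41.6 in epididymis and 45.3 ± 33.5 in brain (SD, n = 3 each), and Bub1b and Cenpf overlapped between organs as well. Cdc20 and Ube2c, which work with the ligase that ends mitosis, averaged 24.7 and 125 in testis, 16.1 and 52.3 in epididymis and 6.46 and 34.1 in brain.

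Among the spindle motors and midzone proteins, the testis libraries stood above the brain libraries for Kif23 and Nusap1, and not for Kif11, Kif20a or Prc1. Kif23, a kinesin of the central spindle, had 182, 177 and 122 normalised reads in testis, 60.0, 61.9 and 128 in epididymis and 66.5, 31.2 and 38.2 in brain (limma's adjusted p = 0.0768 for testis against brain). Nusap1, which bundles spindle microtubules, had 233, 147 and 102 in testis, 19.1, 148 and 0 in epididymis and 17.3, 19.0 and 11.6 in brain (limma's adjusted p = 0.208 for testis against brain). Kif20a averaged 131 ± 44.5 in testis, 134 ± 54.7 in epididymis and 116 ± 45.1 in brain (SD, n = 3 each). Stmn1, which destabilises microtubules, averaged 135 ± 13.4, 72.9 ± 51.1 and 54.3 ± 10.7 in testis, epididymis and brain (SD, n = 3 each), with its testis libraries above those of brain.

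Among the S-phase genes, the one that passed the test was Mcm4, a subunit of the MCM helicase, in testis against brain. It had 146, 153 and 110 normalised reads in testis, 133, 83.5 and 174 in epididymis and 28.2, 10.0 and 30.2 in brain. The brain libraries were all below the others. The log2 fold was 2.66 ± 0.70 for testis (SE, limma's adjusted p = 0.0219) and 2.54 ± 0.70 for epididymis (SE, limma's adjusted p = 0.0518). The testis call was lost without testis library 1 (adjusted p = 0.0662), 2 (0.0849) or 3 (0.0510) and without brain library 2 (0.0712).

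No other subunit of the MCM helicase passed the test, and no difference between subunits was tested. Mcm5 had 105, 227 and 197 normalised reads in testis, 153, 86.3 and 74.4 in epididymis and 60.1, 59.1 and 52.4 in brain. Its brain libraries were the lowest, with a log2 fold of 1.53 ± 0.57 for testis (SE, limma's adjusted p = 0.105) and 0.79 ± 0.57 for epididymis (0.557). Mcm3 averaged 169 ± 96.6 in testis, 252 ± 23.8 in epididymis and 223 ± 121 in brain (SD, n = 3 each). Mcm2, Mcm6 and Mcm7 overlapped between all organs, and Mcm2 had at most 55.6 normalised reads in any library.

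Cdc6 and Cdt1 load the helicase onto origins before S phase. Cdc6 had 41.4, 59.8 and 22.2 normalised reads in testis, 0, 0 and 86.2 in epididymis and no read in brain. Its testis mean was 14.1-fold the assumed floor of 3 reads per brain library, while limma's adjusted p was 0.061. Cdt1 had 125, 96.1 and 116 in testis, 18.2, 62.8 and 32.3 in epididymis and 28.2, 0 and 59.5 in brain, the testis libraries being above all others (limma's adjusted p = 0.163 against brain and 0.568 against epididymis).

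Pcna, the clamp that holds DNA polymerase on its template, had 345, 477 and 518 normalised reads in testis, 266, 361 and 190 in epididymis and 167, 289 and 172 in brain. Every testis library exceeded every brain library, and epididymis overlapped both (testis against brain: log2 fold 1.12 ± 0.36 SE, limma's adjusted p = 0.0593). Gins2, part of the active helicase, had 481, 284 and 442 in testis, 654, 475 and 652 in epididymis and 305, 368 and 380 in brain. The log2 fold against brain was 0.17 ± 0.29 for testis and 0.75 ± 0.29 for epididymis (SE, limma's adjusted p = 0.798 and 0.195). Gins2 shares exon sequence with Gse1 on the opposite strand, and the library kit does not mark strand, so reads of both cannot be told apart.

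The genes of deoxynucleotide supply and Uhrf1 were called in no comparison. Rrm1, a subunit of ribonucleotide reductase, averaged 153 ± 101 in testis, 191 ± 43.1 in epididymis and 177 ± 83.4 in brain (SD, n = 3 each). Tyms, which makes thymidylate, averaged 126 ± 61.6, 111 ± 35.5 and 135 ± 47.6 in testis, epididymis and brain, and Tk1, thymidine kinase, 207 ± 44.9, 147 ± 65.0 and 134 ± 28.6 (SD, n = 3 each). Rrm2, the subunit that limits reductase activity, had 8 reads in testis, 51 in those of epididymis and 14 in those of brain. Uhrf1, which keeps DNA methylation through replication, had 10, 26 and 68 reads in testis, epididymis and brain. Those in testis and in epididymis came from 1 library each. Its log2 fold against brain was -3.25 ± 1.64 for testis (SE, limma's adjusted p = 0.254). The S-phase cyclin Ccne1 had 5, 2 and 30 reads in testis, epididymis and brain, and Ccne2 averaged 52.1 ± 54.9, 18.3 ± 24.7 and 34.6 ± 18.0 there (SD, n = 3 each). The brain libraries stood at 1.82, 0 and 24.9 normalised reads for Ccne1.

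**Figure D4:**
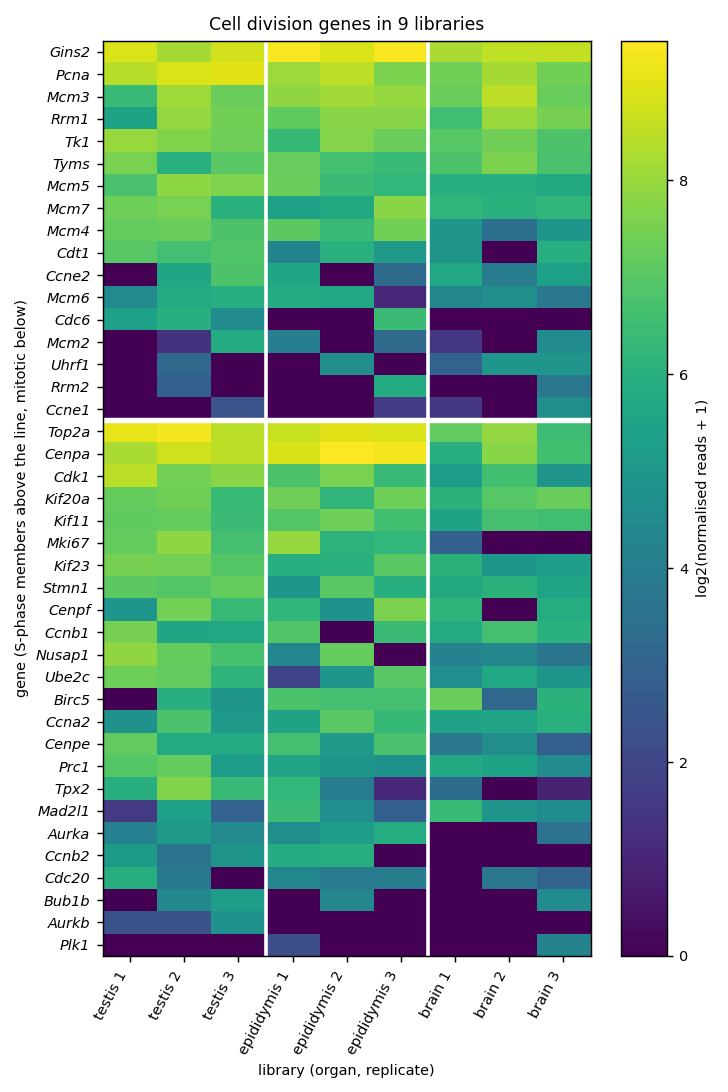
Colour shows log2(normalised reads + 1) for the 41 cell division genes (y axis, S-phase above the white line, mitotic below, by mean over all libraries) in the 9 libraries (x axis; testis, epididymis, brain). Dark cells at 0 are frequent among low genes; in brain, Ccnb2, Cdc6 and Aurkb are at 0 in every library and Mki67 in 2 of 3.

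Summed over each class, every brain library was below every testis and epididymis library, for mitotic and for S-phase genes alike, while testis and epididymis overlapped. The classes were not tested against each other. Mitotic genes summed to 3021, 3292 and 2116 normalised reads in testis, to 2364, 2548 and 2489 in epididymis and to 996, 1208 and 942 in brain. S-phase genes summed to 1992, 2378 and 2318 in testis, to 1983, 1993 and 2197 in epididymis and to 1222, 1837 and 1457 in brain. Brain library 2 came within the spread of the others once sums were given per 10000 reads: the S-phase sum then ran from 5.69 to 6.60 in testis, from 6.26 to 6.87 in epididymis and from 4.18 to 6.04 in brain. The mitotic sum per 10000 ran from 5.93 to 9.14 in testis, from 7.47 to 8.16 in epididymis and from 3.01 to 3.97 in brain, with no overlap against brain.

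The ratio of the mitotic to the S-phase sum averaged 1.27 ± 0.317 in testis, 1.20 ± 0.073 in epididymis and 0.707 ± 0.0942 in brain (SD, n = 3 each). By library it was 1.52, 1.38 and 0.913 in testis, 1.19, 1.28 and 1.13 in epididymis and 0.815, 0.658 and 0.647 in brain. Every brain library was below every other, and no test was run because the genes were listed with earlier results known. Single genes carry much of the sums: Top2a gave 18.2% of the mitotic sum in testis, Cenpa 23.9% in epididymis and Top2a 15.0% in brain. Of the S-phase sum, Pcna gave 20.0% in testis, and Gins2 28.8% in epididymis and 23.3% in brain. Leaving out Top2a, Cenpa and Gins2, an alternative chosen after seeing the data, gave ratios of 1.08 ± 0.345, 0.971 ± 0.136 and 0.693 ± 0.177 in testis, epididymis and brain, and brain library 1 (0.863) then exceeded testis library 3 (0.752).

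A mean that gives each gene the same weight was taken as well. The mean log2(value + 1) of mitotic genes minus that of S-phase genes was 0.20 ± 0.51 in testis, 0.07 ± 0.64 in epididymis and -0.90 ± 0.29 in brain (SD, n = 3 each). The brain library nearest to the others had -0.72 and epididymis library 3 had -0.67, so the groups only just missed each other. Without Ccna2, Stmn1, Ccne1 and Ccne2, which belong less clearly to a class, the means were -0.26, -0.46 and -1.24, and epididymis library 3 (-1.20) then lay within the brain range.

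**Figure D5:**
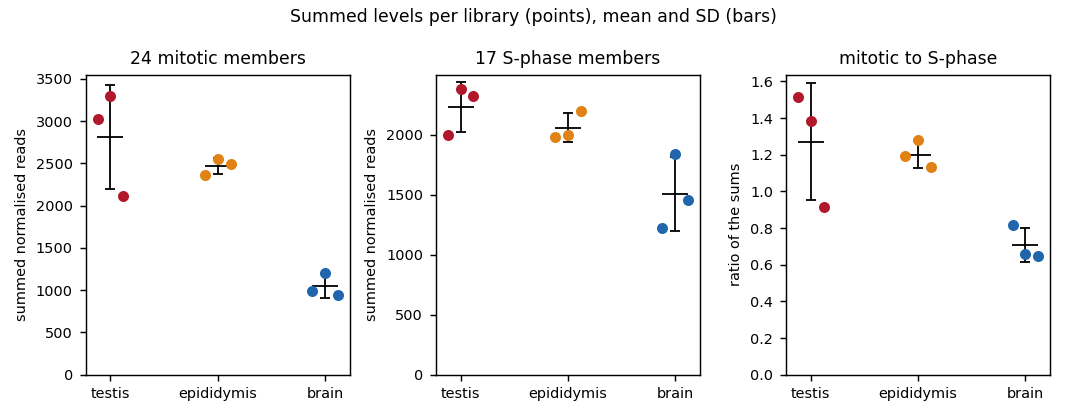
Summed normalised reads of the 24 mitotic genes and of the 17 S-phase genes, and the ratio of the sums (y axes), by organ (x axis; points are libraries, bars mean and SD). The mitotic sum is 2116 or more in testis and epididymis and at most 1208 in brain, while brain library 2 has an S-phase sum of 1837, close to the lowest epididymis sum of 1983.

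Between testis and epididymis, none of the 37 tested genes was called in either direction with limma, where 4.39% of all tested genes were (2.49% higher, 1.90% lower). edgeR and DESeq2 called none either, and 1 gene, Nusap1, had an unadjusted limma p below 0.05, against 17.5% of tested genes. The median log2 fold over the 41 was 0.25, against 0.10 over the whole table. Cdt1, and Aurkb among the untested genes, were higher in each testis library than in each epididymis library, which held for 11.0% of tested genes. Birc5 and Cenpa were lower in each testis library, against 8.80%. A difference in single genes was hard to resolve at these levels: the median coefficient of variation among libraries of an organ was 46.0% in testis, 46.6% in epididymis and 41.2% in brain over genes averaging at least 10. At 0 in 1 library and at least 50 in another of the same organ were 4 genes in testis, 5 in epididymis and 2 in brain.

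Levels of different genes were compared per kilobase of exon. The highest S-phase gene in testis was Pcna, at 186 normalised reads per kilobase, against 114 in epididymis and 87.2 in brain. Gins2 followed with 98.3 in testis, 145 in epididymis and 85.7 in brain. Among mitotic genes Stmn1 reached 70.1, 37.9 and 28.3 per kilobase in testis, epididymis and brain, Cenpa 61.7, 101 and 21.3, and Top2a 56.8, 51.6 and 17.5. Mki67, a long transcript, stood at 16.0, 12.8 and 0.211. Exons of 13 of the 41 genes overlap another annotated gene, and 5 genes (Pcna, Tyms, Ccnb1, Ccnb2 and Stmn1) have an annotated copy that may take or give reads.

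Other genes of the same processes were read from lists that leave out the 42. Of 54 further S-phase and replication genes, 52 had a row and 44 were tested. In testis against brain, 2 of the 44 rose and none fell, where 6.82% of all tested genes rose. In epididymis against brain, 1 rose and none fell, where 2.99% of all tested genes rose. Lig1, which seals Okazaki fragments, averaged 399 ± 113 in testis, 521 ± 207 in epididymis and 151 ± 83.6 in brain (normalised reads, SD, n = 3 each; limma's adjusted p = 0.0319 for testis and 0.0194 for epididymis against brain). Pola1, the catalytic subunit of the primase polymerase, averaged 400 ± 35.3, 281 ± 3.76 and 182 ± 71.7 there and rose in testis (limma's adjusted p = 0.0387). No gene of the list was called between testis and epididymis. The list's median log2 fold over the genes in the table was 0.25 for testis and 0.22 for epididymis against brain.

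Of 71 further mitotic genes, 65 had a row and 52 were tested. Against brain, 3 of the 52 rose in testis and 2 in epididymis and none fell, where 6.82% and 2.99% of all tested genes rose, so these counts lie near the share over all genes. The medians over the genes in the table were 0.83 and 0.82 on the log2 scale. Smc4, a condensin subunit, had 313, 435 and 425 normalised reads in testis, 355, 282 and 410 in epididymis and 102, 25.6 and 61.3 in brain, without overlap against brain (log2 fold 2.80 ± 0.47 SE for testis and 2.64 ± 0.47 for epididymis, limma's adjusted p = 0.000891 and 0.0037). Incenp, the scaffold of the passenger complex, averaged 313 ± 82.6 in testis, 473 ± 136 in epididymis and 136 ± 72.0 in brain (SD, n = 3 each; limma's adjusted p = 0.0147 for epididymis against brain and 0.0576 for testis). H2afz, a histone variant, averaged 3604 ± 611 in testis, 2147 ± 320 in epididymis and 1322 ± 419 in brain (SD, n = 3 each) and rose in testis against brain (limma's adjusted p = 0.000457). Hmgb2, a chromatin protein abundant in dividing cells, averaged 1805 ± 302 in testis, 880 ± 241 in epididymis and 568 ± 98.5 in brain (SD, n = 3 each). It rose in testis against brain (limma's adjusted p = 0.00033) and against epididymis (0.0261). Spc24, a kinetochore protein, averaged 1212 ± 449 in testis, 502 ± 181 in epididymis and 656 ± 92.4 in brain (SD, n = 3 each) and rose in testis against epididymis (limma's adjusted p = 0.0328). These 2 were the list's calls in that comparison, where 2.49% of all tested genes rose.

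Regulators that decide whether a cell enters or leaves the cycle formed a further list. Of 52 listed, 48 had a row and 43 were tested; 5 rose in testis against epididymis, where 2.49% of all tested genes did. In testis against brain 4 rose and 1 fell, where 6.82% and 4.83% of all tested genes did, and in epididymis against brain 3 rose, where 2.99% did. Ccnd2, a cyclin of G1, had 970, 1189 and 768 normalised reads in testis, 183, 309 and 240 in epididymis and 10.0, 49.0 and 21.3 in brain, with no overlap between organs. Its log2 fold was 5.38 ± 0.52 for testis and 3.37 ± 0.52 for epididymis against brain (SE, limma's adjusted p = 4.26e-06 and 0.00108). Cdkn1a, which encodes the cycle inhibitor p21, had 1695, 1766 and 1427 in testis, 239, 208 and 315 in epididymis and 288, 281 and 279 in brain. It rose in testis against both organs, by 2.69 ± 0.26 over epididymis and 2.52 ± 0.26 over brain on the log2 scale (SE, limma's adjusted p = 4.9e-05 and 9.16e-06). A cyclin and an inhibitor were both higher in testis.

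Other regulators, given here as mean normalised reads with the SD, differed by organ in their own ways. Gadd45b, a stress-induced growth arrest gene, averaged 378 ± 68.6 in testis, 68.8 ± 33.8 in epididymis and 57.0 ± 34.8 in brain (SD, n = 3 each). Cdk6, a partner of the D cyclins, averaged 1297 ± 326, 513 ± 101 and 798 ± 108 there and rose in testis against epididymis (limma's adjusted p = 0.00816). Gadd45g averaged 1489 ± 204, 2199 ± 123 and 866 ± 225 in testis, epididymis and brain and rose in both against brain. Ccnd1, another D cyclin, averaged 1396 ± 315, 2088 ± 145 and 1135 ± 143 and rose in epididymis against brain (limma's adjusted p = 0.022). Maf, a factor that in mouse macrophages restrains self-renewal, averaged 7830 ± 445 in testis, 11360 ± 392 in epididymis and 11193 ± 910 in brain and fell in testis against brain, by a log2 fold of -0.51 ± 0.15 (SE, limma's adjusted p = 0.0426). Ccnd1, Ccnd2, Cdk6, Cdkn1a, Lig1 and Maf overlap an annotated gene on the opposite strand.

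Markers of other cell types were summed per library, and some of the sums were higher where the cell division genes were. T and NK cell markers (10 of 15 with a row) summed to between 909 and 1211 normalised reads in testis, 166 and 261 in epididymis and 72.9 and 154 in brain, where Cd3e, Lck, Cd8a, Nkg7 and Prf1 were at 0. Dendritic cell markers (7 of 9) summed to between 728 and 1087 in testis, 594 and 851 in epididymis and 338 and 426 in brain. Both sums were higher in every testis and epididymis library than in any brain library. Gene by gene, both lists rose in testis against brain. The median log2 fold there was 4.6 for T and NK cell markers (10 up, none down) and 1.5 for dendritic cell markers (7 up, none down). Of the T and NK cell markers 6 of 8 tested were called higher, and of the dendritic cell markers 1 of 7, where 6.82% of all tested genes were. The dendritic cell list did not rise in epididymis against brain: the median log2 fold was -0.03, with 3 genes up and 4 down. For T and NK cell markers it was 0.54, with 6 up and 1 down. In each list 1 gene was called higher there, of 7 and 8 tested, where 2.99% of all tested genes were. Monocyte markers (10 of 12) summed to between 1655 and 2153 in testis, 57.3 and 395 in epididymis and 308 and 522 in brain, and S100a8 and S100a9 were at 0 in testis. Their sum was thus higher than in brain in testis and not in epididymis. Ccr2 averaged 1343 in testis and 90.4 in brain, and F13a1 450 and 13.4. Of the 8 monocyte markers tested in testis against brain, 2 were called higher and 2 lower, where 6.82% and 4.83% of all tested genes were. The list's median log2 fold there was -0.01, with 5 genes up and 5 down.

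Germ cell and organ markers differed by organ as well. Markers of spermatogonia and spermatocytes (13 of 24) summed to between 272 and 357 in testis, 56.1 and 294 in epididymis and 30.1 and 59.1 in brain, so that epididymis and brain overlapped. Dmc1 was at 0 in testis, Sycp1 in epididymis and brain, and Ddx4, Dazl and Stra8 are not analysed here. Spermatid markers (12 of 12), from cells that no longer divide, summed to between 1263 and 2494 in testis, 784 and 1055 in epididymis and 329 and 362 in brain, without overlap. Most of the brain sum was Odf2 (308, 303 and 340 by library), which averaged 310, 332 and 317 in testis, epididymis and brain. Of the 12, 7 were at 0 in every brain library, among them Prm1 and Tnp2. Markers of Leydig, Sertoli and myoid cells (11 of 13) summed to between 1565 and 3375 in testis, 114 and 420 in epididymis and 148 and 212 in brain, and epididymis and brain overlapped. Epididymal epithelial markers (10 of 12) summed to between 19.7 and 88.0 in testis, 507 and 699 in epididymis and 17.8 and 28.2 in brain, and testis and brain overlapped.

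The sums of the remaining lists did not follow the cell division genes in both comparisons with brain. B and plasma cell markers (7 of 8) summed to between 209 and 249 in testis, 123 and 249 in epididymis and 65.8 and 174 in brain, and epididymis and brain overlapped. Neutrophil and mast cell markers (5 of 10) summed to between 67.9 and 81.2 in testis, 0 and 45.5 in epididymis and 32.3 and 60.1 in brain. Progenitor and erythroid markers (3 of 10) summed to between 71.9 and 140 in testis, 0 and 129 in epididymis and 135 and 236 in brain, mostly higher in brain. Stromal and endothelial markers (8 of 9) summed to between 238 and 422 in testis, 170 and 358 in epididymis and 323 and 483 in brain, and neural markers (8 of 15) to between 204 and 816 in testis, 178 and 312 in epididymis and 375 and 501 in brain. The part of all these cells in the results was not tested.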

How the data were processed

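RNA sequencing libraries of sorted macrophages were made with a TruSeq RNA v2 kit from 10 ng of RNA, which does not mark strand, per the labels' protocols. The deposited signal values are the authors' reads per gene divided by 1 factor per library; the tools named are CASAVA 1.8, Bowtie2 2.2.1, Partek 6.6 and DESeq2, with the mm10 genome, per the submitters' processing notes, and neither the counting rule nor the annotation is given in the sources used here. Whole reads were recovered for 100% of values (tolerance 1e-06 reads) and the factors equalled DESeq2 size factors.

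The cell division genes and all other lists were chosen with earlier results of these data known. limma 3.58.1 (R 4.3.3) was run on log2(value + 1) with 1 mean per organ, a variance trend and all 9 libraries, on genes of at least 10 in 3 libraries. Replicates are numbered in accession order and were not paired. edgeR 4.0.16 and DESeq2 1.42.0 on recovered reads were alternatives. Every listed gene was eligible to be named; of the further lists, up to 4 called genes per direction and comparison were named, by size of log2 fold, and of marker lists mainly sums are given. Gene positions and exon lengths are from GENCODE M21 on GRCm38. Scripts were tested on simulated data.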

Additional observations from a re-analysis of the deposited data

How the results depend on the processing

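The 19 alternatives were pseudocounts of 0.5 and 5, no filter on low values and a filter of 30, libraries rescaled to the same total, quantile normalization, no variance trend, only the libraries of 2 organs in the fit, edgeR, DESeq2 and leaving out each of the 9 libraries. Of the cell division genes, 6 were called higher in testis than in brain: the number was 11 with DESeq2 (2 S-phase and 9 mitotic, among them the 6), 2 without a variance trend (Mki67 and Mcm4), and 3 to 10 on leaving out 1 library. It was 3 without brain library 1 or testis library 1, 2 or 3, and 10 without epididymis library 3. The number over all tested genes moved too, from 803 to 959 with DESeq2 and 529 without a variance trend. On leaving out 1 library it ran from 509 (without testis library 2) to 867 (without epididymis library 3). Higher in epididymis than in brain were 3, and the number was 6 with DESeq2 (2 S-phase and 4 mitotic), 1 without a variance trend (Mki67), 1 with only these organs in the fit (Cenpa) and 2 to 3 on leaving out 1 library. Of all tested genes, 352 were called higher in this comparison, 546 with DESeq2 and 171 without a variance trend. It was 234 with only these organs in the fit and 224 to 369 on leaving out 1 library. No called gene changed direction under any alternative. In testis against brain Tpx2 kept its call in 7 of 19 alternatives, Cdk1 in 14, Mcm4 in 15 and Cenpa in 16. The cause of these changes was not tested. edgeR's common biological coefficient of variation over all genes was 0.913, and several cell division genes had under 100 reads per organ, which limits what single genes can show. No paired analysis was possible because the labels give no replicate numbers that link libraries of different organs.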
